A study of Mus musculus with 220 samples.

Results

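The livers of 3 female F1 mice with SJL/J mothers were set against those of F1 mice from the other classical inbred strains of the panel. The members were chosen by the maternal strain label alone: 3 of 220 mice carried the label SJL/J, and the comparison strains were the 28 other classical strains (62 mice), that is, every strain outside the BXD, AXB/BXA, CXB and BXH recombinant panels. All 220 mice of the 96 strains were sired by C57BL/6J males transgenic for human APOE-Leiden, a dominant variant of apolipoprotein E that slows the clearance of remnant lipoproteins, and for human CETP, a plasma protein that moves cholesteryl esters between lipoproteins and that mice lack. All ate chow for 8 weeks and then a cholesterol-rich Western diet for 16 weeks, and the liver was taken at 24 weeks of age. Each mouse, except those with C57BL/6J mothers, was therefore heterozygous between its maternal strain and C57BL/6J. In the SJL/J mice an SJL/J allele was measured next to a C57BL/6J allele. The study's methods leave the insertion sites and copy numbers of the transgenes unknown. RNA from 1 lobe of each liver was hybridised to 1 Affymetrix array, and values are deposited log2 RMA values, so that a difference of 1 is a 2-fold difference in signal. The 3 SJL/J mice had consecutive label numbers, 70 to 72, so strain cannot be told apart from a litter, cage or day that they may have shared.

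SJL/J is an albino strain of Swiss origin, as are FVB/NJ and SWR/J. It is known for its susceptibility to experimental autoimmune encephalomyelitis, for a dysferlin mutation that causes late muscle disease, for the retinal degeneration allele of Pde6b, and for the H2 s haplotype, which carries no functional E alpha gene of MHC class II. In liver, sterol synthesis and fatty acid synthesis are controlled by the sterol regulatory element-binding proteins, membrane-bound transcription factors that are released when cell sterol is low or insulin is high. Dietary cholesterol lowers the first of these. Kupffer cells, the resident macrophages of the liver, are joined in fatty liver by lipid-laden macrophages that express Trem2 and Gpnmb.

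The tests addressed 3 questions for each of 17097 genes, each represented by the probe set with the highest mean. The within-strain test compared the SJL/J mean with the average of the 28 other strain means, using the spread between mice of the same strain. The among-strain test asked whether SJL/J lay outside the spread of the 28 strain means themselves. A closer contrast set SJL/J against the average of FVB/NJ (3 mice) and SWR/J (2 mice). All were limma tests, two-sided, with Benjamini-Hochberg adjustment over 45037 probe sets, and a gene was called at an adjusted p under 0.05. "Adjusted p" below is that of the within-strain test in limma unless another test is named.

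The medians of the SJL/J arrays lay between 3.44 and 3.47, and the correlations between pairs of SJL/J mice ran from 0.990 to 0.993. The highest correlation of an SJL/J mouse with a mouse of another strain was also 0.993. The median SD between the 3 mice was 0.142 on the log2 scale, toward the top of the range of 0.0837 to 0.154 inside single classical strains. Only FVB/NJ (0.154) and BUB/BnJ (0.144) had a larger one. The within-strain test pooled the spread over all strains of the series, so its p-values can understate the spread of the SJL/J mice. The mean level of 11 hepatocyte markers was 12.23, 12.28 and 12.35 in the 3 mice, beside strain means from 12.24 to 12.43, with mouse 1 just below the lowest. Mouse 1 stood apart from the other 2 in some gene groups. The mean level of 12 guanylate-binding and immunity-related GTPases, which restrain intracellular microbes after interferon gamma, was 8.93 in mouse 1, 7.95 in mouse 2 and 7.86 in mouse 3, and the 28 strain means ran from 7.34 to 8.59. None of the 12 was called (0 at an unadjusted p under 0.05). The mean level of 26 cell cycle genes was 5.89 in mouse 1, 5.08 in mouse 2 and 5.23 in mouse 3, with strain means from 4.72 to 5.64.

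The within-strain test called 843 of 17097 genes (4.93%), 391 higher in SJL/J (2.29%) and 452 lower (2.64%). With arrays centred on their medians it called 479 higher and 373 lower, so neither direction can be said to prevail. Most differences were small: the median size was 0.36 on the log2 scale, 624 lay under 0.5, and 51 exceeded 1, of which 29 were higher and 22 lower. The count rested on all 3 mice, and fell to 404 without mouse 1, 733 without mouse 2 and 363 without mouse 3. The among-strain test called 2 genes (0.0117%), H2-Q5 and Ankrd16. In that test 517 of 17097 genes had an unadjusted p under 0.05, a share smaller than 0.05 itself, so there was no excess of low p-values. No other called gene passed the test against the spread of the strains. The 3 SJL/J mice all lay above the highest or below the lowest of the 28 strain means for 98 genes (0.573%), 57 above (0.333%) and 41 below (0.24%), and 78 of these were also called (0.456%). Because so few genes passed both tests, further genes were added after their values were seen, by the size of the difference or by this separation. The rest were genes with known alleles or members of a gene list, and some of the list members named, such as Sqle, Insig1 and Scd1, were not called.

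**Figure D1:**
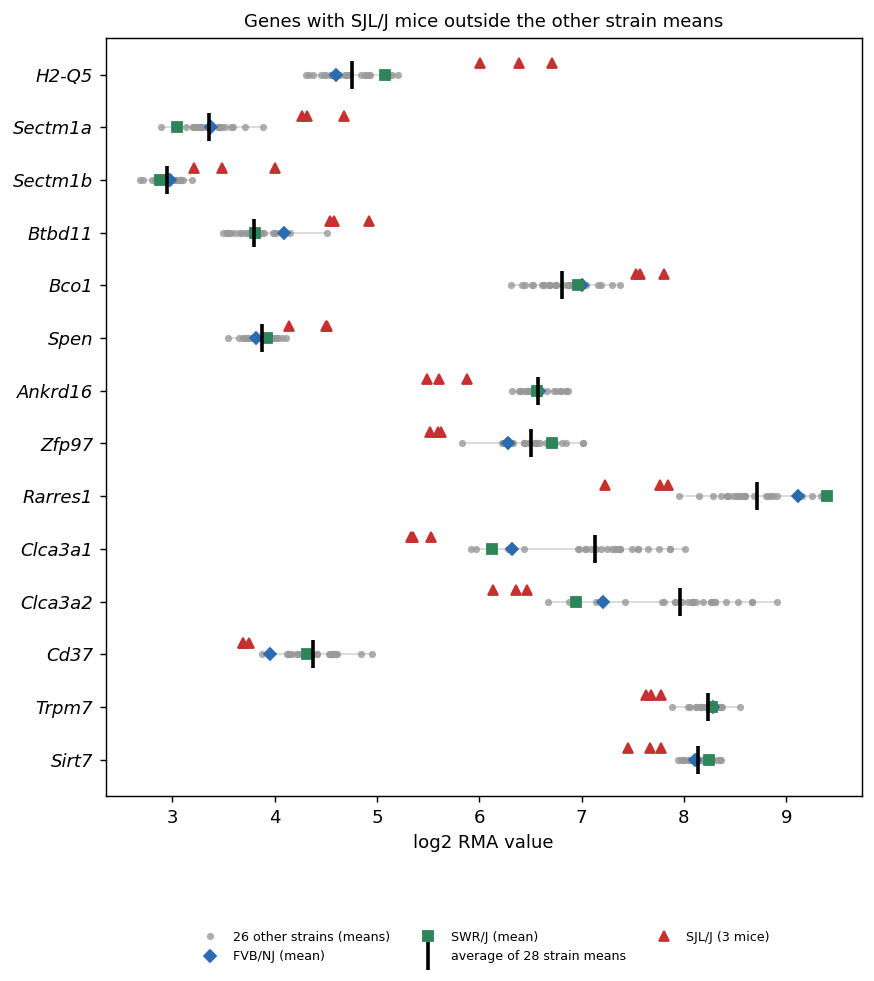
Log2 RMA values of 14 genes called in the within-strain test for which the 3 SJL/J mice (triangles) lay outside the other 28 strain means (grey points, with FVB/NJ as a diamond and SWR/J as a square; the bar is the average of the 28). For H2-Q5 the 3 mice lay at 6.00 to 6.71 and the highest strain mean at 5.21.

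H2-Q5, a nonclassical MHC class I gene of the Q region, was the gene that stood apart most clearly. Its signal was 6.71, 6.00 and 6.39 in the 3 mice and 4.30 to 5.21 in the 28 other strains, with C57BL/6J highest. All 3 mice therefore exceeded every other strain. The difference was 1.61 ± 0.13 (SE), a 3.05-fold higher signal, with an adjusted p of 1.54e-20 within strains and 0.0341 among strains, and it was 1.53 against FVB/NJ and SWR/J (limma, adjusted p 4.04e-13). In the among-strain test the adjusted p of H2-Q5 was 0.109 without mouse 1, 0.0574 with only strains of 2 or more mice, and 1 where its probe sets were averaged, where another, dim probe set read lower in SJL/J. Class I genes are near-identical in sequence, and the probes may read related Q genes.

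Ankrd16, an ankyrin repeat protein that assists the proofreading of alanyl-tRNA synthetase, lay at 5.49, 5.61 and 5.88 in the 3 mice. The other strains held it within a narrow band from 6.32 in BUB/BnJ to 6.87 in KK/HlJ, so that all 3 mice fell below it. The difference was -0.92 ± 0.09 (adjusted p 4.35e-14), and -0.91 against FVB/NJ and SWR/J, the Swiss relatives. Its adjusted p among strains was 0.0341, rising to 0.109 without mouse 1, 0.0574 with only strains of 2 or more mice, 0.051 without the C57BL group and 0.0672 with a trended, robust spread. No measurement here addresses whether SJL/J sequence under these probes differs from the probe design.

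Other genes with SJL/J at an edge came as neighbours on the chromosome. Sectm1a and Sectm1b, adjacent genes for small secreted or membrane proteins that bind T cells and NK cells, both ranked highest of the 29 strains. Sectm1a was 4.68, 4.27 and 4.31 against a highest strain mean of 3.89 (difference 1.07 ± 0.15, adjusted p 5.16e-08), and Sectm1b was 4.01, 3.21 and 3.48 against 3.19 (0.62 ± 0.09, adjusted p 1.21e-07). Both are dim genes, and mouse 2 lay just above the nearest strain for Sectm1b. At the other end, Clca3a1 and Clca3a2, neighbouring regulators of calcium-activated chloride channels, both ranked lowest. Clca3a1 lay at 5.33, 5.35 and 5.53 against a lowest strain mean of 5.92 (-1.72 ± 0.15, adjusted p 3.09e-17) and Clca3a2 at 6.36, 6.14 and 6.46 against 6.67 (-1.64 ± 0.14, adjusted p 1.15e-17). BUB/BnJ was the nearest strain for both, and since these paralogs can share probes they are not independent observations.

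Further genes separated from all 28 strain means are shown in the plot of separated genes. Bco1, the enzyme that cleaves beta-carotene to retinal, was 7.80, 7.57 and 7.53, above the highest strain mean of 7.38 in MA/MyJ (0.83 ± 0.09, adjusted p 4.86e-13). Rarres1, a retinoic acid-responsive gene, was 7.84, 7.23 and 7.77, below the lowest mean of 7.95 in A/J (-1.10 ± 0.13, adjusted p 9.24e-11), and its distance from FVB/NJ and SWR/J was larger, at -1.64. Both belong to vitamin A biology, and their differences had opposite signs. Btbd11, a BTB domain protein, was higher by 0.89 ± 0.16 (adjusted p 5.04e-05), and the transcriptional corepressor Spen was higher by 0.51 ± 0.10 (adjusted p 0.000234). Lower in SJL/J were the zinc finger gene Zfp97 (-0.93), the B cell tetraspanin Cd37 (-0.67), the cation channel and kinase Trpm7 (-0.55) and the NAD-dependent deacetylase Sirt7 (-0.51). These 8 genes kept their call without each mouse in turn. Other probe sets did not all show the difference. That of Spen was dim (2.97 in SJL/J, difference -0.009), and that of Cd37, as dim as the one used, read 4.31, 4.16 and 4.01 (0.01, adjusted p 0.981). Trpm7 had another at -0.40 (adjusted p 0.00163) and another at -0.14 (adjusted p 0.602). Of the 78 called and separated genes, 48 were also called against FVB/NJ and SWR/J, where 8.76% of all genes were called. Both strains are among the 28 used to pick the 78, and the SJL/J mice are the same. The 48 are therefore not independent support.

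Genes of sterol and fatty acid synthesis were higher in SJL/J than in the average strain, but other strains had higher levels still. The mean level of the sterol list was 7.77 in SJL/J, which ranked 4 among the classical strains, with BTBR T<+> tf/J highest at 7.91. That of the fatty acid list was 10.53 in SJL/J, which ranked 5, with NOD/ShiLtJ highest at 10.69. Of 19 measured genes of cholesterol biosynthesis, 5 were called higher and 0 lower, 18 lay above the average of the other strains, and the median difference was 0.61. Of 16 genes of fatty acid synthesis, 5 were called higher and 0 lower, all 16 lay above, and the median was 0.52. The median of all genes was 0.006. As called shares these are 26.3% and 31.2%, beside 2.29% of all genes called higher. The lists were chosen with earlier results in view, and genes of 1 pathway are not independent of each other.

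The promoters of 4 of these genes are given because they carry the CCAAT box, the site of the factor NF-Y that acts beside the sterol regulatory element-binding proteins on many lipid genes. Each line is the 120 bases before a RefSeq transcript start (GRCm38.p6), read 5′ to 3′ on the gene's strand, with capitals marking CCAAT or its reverse complement ATTGG. Cyp51 lies at chr5:4104698-4104817 on the minus strand, Idi1 at chr13:8885486-8885605 on the plus strand, Mvd at chr8:122443423-122443542 on the minus strand and Fasn at chr11:120824548-120824667 on the minus strand.
Cyp51: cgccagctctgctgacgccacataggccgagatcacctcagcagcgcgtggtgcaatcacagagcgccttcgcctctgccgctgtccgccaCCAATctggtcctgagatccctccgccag
Idi1: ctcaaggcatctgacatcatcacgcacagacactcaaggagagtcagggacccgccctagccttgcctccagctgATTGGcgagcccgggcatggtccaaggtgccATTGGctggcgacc
Mvd: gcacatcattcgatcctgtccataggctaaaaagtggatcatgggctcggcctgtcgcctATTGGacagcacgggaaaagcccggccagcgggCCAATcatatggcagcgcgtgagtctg
Fasn: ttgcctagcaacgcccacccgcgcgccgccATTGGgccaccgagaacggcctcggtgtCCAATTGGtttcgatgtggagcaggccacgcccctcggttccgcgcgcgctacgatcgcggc
In the 250 bases before the start, searched on both strands, CCAAT was found in 7 of the 8 called genes of the 2 lists that have an entry in the RefSeq promoter table (87.5%), in 25 of 29 measured list members (86.2%) and in 37.5% of all 27025 genes with an entry. The sterol element written as TCACNCCAC was found in 0 of those 8, 2 of 29 (6.9%) and 1.22% of all. Only this spelling was searched, so the 0 does not show that these promoters lack a sterol element. In Fasn a CCAAT and an ATTGG overlap. A match is a description of letters, and these letters are those of the reference, not of SJL/J.

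Within the sterol list, the 5 called genes were 4 enzymes of the pathway and 1 sterol carrier. Cyp51, which removes a methyl group from lanosterol, was 8.26, 7.77 and 7.64 in the 3 mice, against 4.99 in C58/J to 7.71 in BTBR T<+> tf/J (difference 1.16 ± 0.27, adjusted p 0.00288). Idi1, the isopentenyl diphosphate isomerase, was 8.93, 8.51 and 8.41 against 6.28 to 8.58 (0.88 ± 0.25, adjusted p 0.0193). Their SJL/J means were the highest of the 29 strains, and in each the mice overlapped the upper strains. Mvd, mevalonate diphosphate decarboxylase, was uneven at 5.63, 4.11 and 5.05 (0.93 ± 0.29, adjusted p 0.0476), with mouse 2 close to the average of the strains. Fdft1, squalene synthase, was higher by 0.48 (adjusted p 0.0119) and Stard4, a cytosolic sterol carrier, by 0.67 (adjusted p 0.0244). Among those that missed the threshold, Sqle, squalene epoxidase, was 7.65, 6.00 and 5.87 (1.07, adjusted p 0.086), and the regulator Insig1 was 9.13, 9.12 and 9.01 (0.69, adjusted p 0.0794). Hmgcs1, at the start of the pathway, was 3.86, 3.60 and 3.43 on its brightest probe set, near the dim end of the arrays, and did not differ detectably (0.06, adjusted p 0.877). Without mouse 1, 2 or 3 in turn, 0, 3 and 1 of the 19 genes were called, while the median stayed between 0.56 and 0.63. Cyp51 lost its call without mouse 1 (adjusted p 0.102), Mvd without mouse 1 (0.489) or mouse 3 (0.25), Fdft1 without mouse 1 (0.133) or mouse 3 (0.149), and Idi1 and Stard4 whichever mouse was left out (0.0546 to 0.221 and 0.0573 to 0.188). Mvd was also lost with classical mice only (0.133), with a trended, robust spread (0.0552) and with averaged probe sets (0.0724), and Stard4 with averaged probe sets (0.106) and without the C57BL group (0.0568).

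In the fatty acid list the largest difference was in Pnpla3, adiponutrin, a lipid droplet acyl hydrolase strongly induced by carbohydrate feeding. It was 6.91, 7.80 and 7.01 in the 3 mice, with other strains from 3.44 in BALB/cJ to 7.76 in FVB/NJ. The SJL/J mean ranked 3 of 29 and lay above the strain median of 4.58 (2.18 ± 0.50, 4.53-fold, adjusted p 0.00234). Acacb, whose malonyl-CoA restrains entry of fatty acids into mitochondria, was 8.95, 9.28 and 9.10, near the top strain C57BL/6J at 9.24 (1.28 ± 0.32, adjusted p 0.007). Elovl6, an elongase of saturated fatty acids, was higher by 1.14 (adjusted p 0.0251), Fasn, fatty acid synthase, by 0.99 (adjusted p 0.0332), and Gpam, which starts triglyceride assembly, by 0.41 (adjusted p 0.0363). Scd1, stearoyl-CoA desaturase, was near the top of the array scale at 13.29, 13.22 and 13.25 and did not pass (0.08, adjusted p 0.541). Acly and Acaca missed the threshold, with differences of 0.76 and 0.61. Outside the list, Pnpla5, a paralog of Pnpla3, was 4.46, 5.41 and 5.15 (1.17 ± 0.31, adjusted p 0.0119), the highest mean of the 29 strains. Vldlr, the very low density lipoprotein receptor, was 6.63, 7.22 and 6.60 (1.25 ± 0.20, adjusted p 2.96e-06) and ranked 3 of 29. Without mouse 1, 2 or 3 in turn, 3, 0 and 1 of the 16 genes were called, and the median lay between 0.51 and 0.61. The 3 without mouse 1 took in Mlxipl (adjusted p 0.0366), which was not called with all 3 mice. Its difference was -0.02 without mouse 2. Pnpla3 was lost without mouse 2 (adjusted p 0.0535), Acacb without mouse 2 or 3 (0.0625 and 0.0644), Pnpla5 without mouse 2 or 3 (0.144 and 0.126), and Elovl6, Fasn and Gpam whichever mouse was left out (0.0624 to 0.186, 0.0886 to 0.193 and 0.0912 to 0.246). Fasn was also lost with classical mice only (0.0582). Vldlr kept its call throughout.

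**Figure D2:**
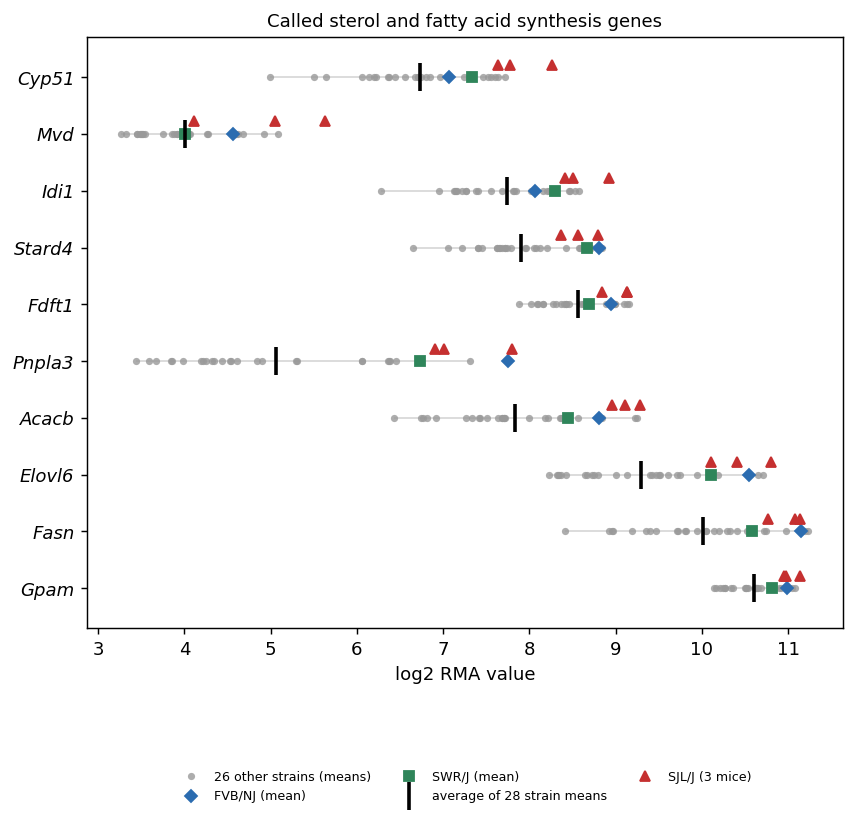
Log2 RMA values of the 10 called genes of the sterol and fatty acid synthesis lists in the 3 SJL/J mice (triangles) and the 28 other classical strain means (grey points; FVB/NJ diamond, SWR/J square; the bar is their average). The SJL/J mice sit on the upper side of the strains, near the 2 Swiss strains for Stard4, Pnpla3, Elovl6 and Fasn.

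The lipid difference was not seen against the Swiss relatives. Against FVB/NJ and SWR/J, where 8.76% of genes were called (5.4% higher in SJL/J and 3.35% lower), 0 of the 16 fatty acid genes were called (0 at an unadjusted p under 0.05) and their median was 0.0008. Of the 19 sterol genes 0 were called higher and 1 lower, with a median of 0.05. Pnpla3, for example, had means of 7.76 in FVB/NJ, 7.24 in SJL/J and 6.73 in SWR/J. These 2 contrasts share the SJL/J mice and the FVB/NJ and SWR/J mice, and the difference between them was not tested.

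Downstream of synthesis the picture was mixed. In the lipid droplet list 2 of 16 genes were called higher and 2 lower, of which 1, Hsd17b13, is higher on its other probe set. That is 25% called, beside 4.93% of all genes. Plin2, the main droplet coat protein of the liver, was 12.77, 12.59 and 12.55 (0.23 ± 0.06, adjusted p 0.0196, but 0.318 without mouse 1). Fitm1, which helps droplets form, was 5.95, 4.91 and 5.72 (-1.11 ± 0.30, adjusted p 0.0142, but 0.239 without mouse 2 and 0.0596 without mouse 3). Of 23 genes of fatty acid oxidation 0 were called in the within-strain test, beside 4.93% of all genes, with a median of -0.002. At an unadjusted p under 0.05 there were 4 of the 23, beside 3078 of all 17097 genes. Whether this list differed from all genes was not tested. In the sterol efflux and lipoprotein list 1 of 27 was higher and 3 were lower (14.8% called). Mouse Apoe was 12.79, 12.90 and 12.88 and did not pass (-0.10, adjusted p 0.183).

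Hsd17b13, a lipid droplet protein of hepatocytes, gave opposite answers from its 2 probe sets. On the brighter one the 3 mice read 11.37, 10.88 and 10.83, the lowest mean of the 29 strains, with the others from 11.17 in FVB/NJ to 12.09 in 129X1/SvJ (-0.74 ± 0.09, adjusted p 3e-11). On the dimmer one they read 7.51, 7.65 and 7.56, where the strain median was 3.29 and the range 2.82 to 7.99 in NON/ShiLtJ (3.55 ± 0.19, adjusted p 3.05e-35). Averaging the probe sets turned the gene's difference to 1.40. A direction for Hsd17b13 as a whole cannot be given from these arrays.

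Macrophage genes differed in 2 directions. Trem2, the lipid receptor of lipid-associated macrophages, was 4.88, 6.21 and 6.98 in the 3 mice, below the strain median of 7.53 (-1.42 ± 0.25, adjusted p 2.33e-05). Gpnmb, a lysosomal glycoprotein of the same cells, was 8.21, 8.80 and 9.80 against a median of 10.14 (-1.18 ± 0.27, adjusted p 0.00175). In both genes mouse 1 was lowest and mouse 3 highest, SJL/J ranked 28 of 29, and SWR/J was lower still, at 5.24 and 6.44. Of the 14 genes of this list, 3 were lower (with Atp6v0d2, a proton pump subunit, at -0.64) and 1 higher (Plin2), and the median was -0.25. Together these are 28.6% called, beside 4.93% of all genes. Without mouse 1 none of the 14 was called (Trem2 adjusted p 0.111, Gpnmb 0.183, Atp6v0d2 0.404), and without mouse 2 Atp6v0d2 was lost too (0.145). Against FVB/NJ and SWR/J the same list had 6 genes called higher and 0 lower, with a median of 0.41. Of all genes 5.4% were called higher there and 3.35% lower. SWR/J, one of the pair, was the lowest of the 28 strains for Trem2, Gpnmb and Atp6v0d2.

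Of 23 macrophage and Kupffer cell markers 2 were called higher and 1 lower (13% called, beside 4.93% of all genes). Their median was 0.02, and 0 were called without mouse 1 or without mouse 2. Clec4f, a lectin restricted to Kupffer cells, was 9.86, 9.86 and 9.33, near the top strain BUB/BnJ at 9.73 (1.18 ± 0.30, adjusted p 0.00712, but 0.0939 without mouse 1 and 0.0664 without mouse 2). Folr2, a folate receptor of resident macrophages, was 8.45, 8.78 and 8.29 (0.84 ± 0.22, adjusted p 0.00892, but 0.0575 and 0.122 without the same mice). Cd68, a lysosomal protein of all macrophages, was lower at 8.83, 8.88 and 9.35 (-0.50 ± 0.16, adjusted p 0.0472, but 0.312 and 0.232 without those mice and 0.0519 with arrays centred on their medians). The other 20 markers were not called. The mean level of the 23 in the 3 mice, 8.42, 8.15 and 8.27, lay within the strain range of 7.87 to 8.65, and Cd5l, an abundant Kupffer cell product, did not differ detectably (0.09, adjusted p 0.635). In whole liver, fewer cells of a type and less RNA per cell cannot be told apart.

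Of 30 chemokines and receptors, 2 were called higher and 0 lower (6.67% called, beside 4.93% of all genes). Ccl24, an eotaxin, an attractant of eosinophils made by macrophages, was 7.54, 6.89 and 6.42 against 3.20 in KK/HlJ to 7.04 in PL/J (2.15 ± 0.26, 4.44-fold, adjusted p 2.96e-10). SJL/J ranked 2 of 29, and the strain median was 4.30. It was also higher than in FVB/NJ and SWR/J (1.40, limma adjusted p 0.00225). Ccl7, a monocyte attractant, was 5.80, 4.59 and 5.84, with the highest mean of the 29 strains (1.17 ± 0.26, adjusted p 0.00115, but 0.0762 without mouse 1 and 0.0934 without mouse 3). Ccl24 kept its call without each mouse. A further pair of genes, lower in SJL/J, was Hpgds, hematopoietic prostaglandin D synthase, at 3.33, 3.94 and 4.48 (-1.25 ± 0.22, adjusted p 2.83e-05), and Gdf3, a growth factor of the transforming growth factor beta family, at 4.82, 5.64 and 5.52 (-1.18 ± 0.23, adjusted p 0.000184, but 0.0534 without mouse 1).

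**Figure D3:**
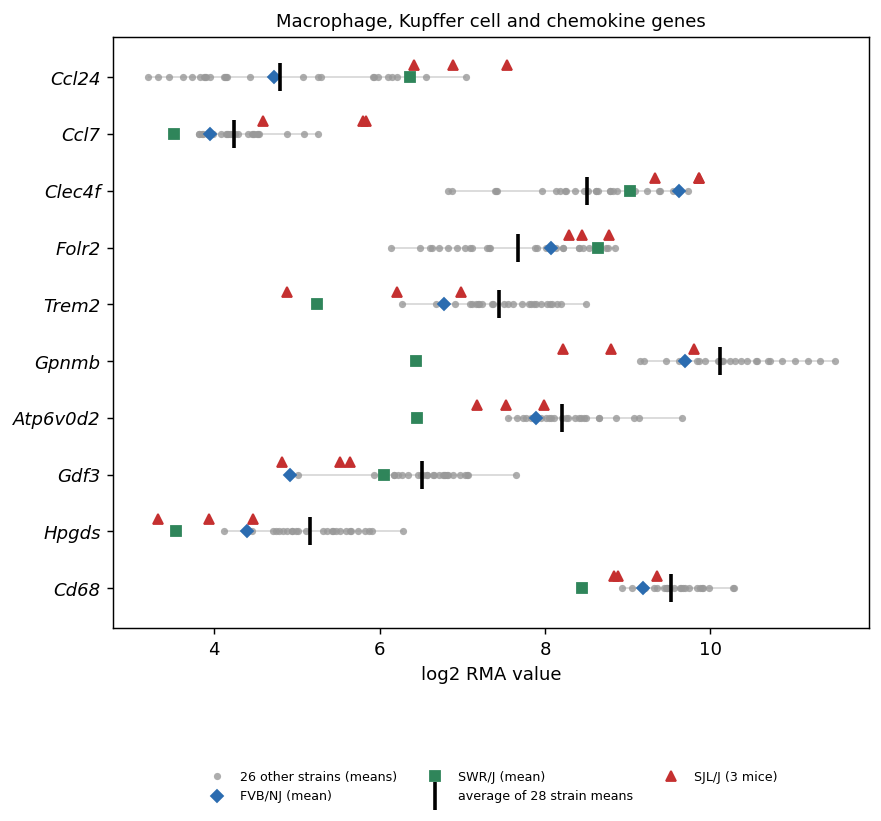
Log2 RMA values of 10 macrophage and chemokine genes in the 3 SJL/J mice (triangles) and the 28 other classical strain means (grey points; FVB/NJ diamond, SWR/J square; the bar is their average). Ccl24, Ccl7, Clec4f and Folr2 lie to the right of the average and Trem2, Gpnmb, Atp6v0d2, Gdf3, Hpgds and Cd68 to the left.

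The largest fall among the 17097 genes was in H2-Ea, the E alpha chain of MHC class II. It read 2.93, 3.26 and 3.23 in the 3 mice, near the dim end of the arrays, and up to 10.80 in SEA/GnJ (-4.12 ± 0.37, adjusted p 1.95e-17). C57BL/6J, the father of every mouse, also lacks a working gene and read 2.80, so an F1 between 2 strains without it should be low. The low reading is what the SJL/J label calls for, but it cannot tell SJL/J from other low strains. Of the 28 other strains 10 lay under 5, and 5 lay within 0.5 of SJL/J, among them BTBR T<+> tf/J, C57L/J, KK/HlJ and LP/J. The other 11 class II presentation genes were not called. The class I list does not include H2-Q5, described above. Of its 15 measured genes 1 was called higher and 2 lower (20% called, beside 4.93% of all genes). H2-Q10, a secreted class I protein of the liver, was higher by 0.29 (adjusted p 0.000582). H2-T24 was at -1.01 (adjusted p 0.000171) and H2-T23 at -0.29 (adjusted p 0.00713, but 0.167 without mouse 2 and 0.202 without mouse 3).

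Other genes with widely spaced strain levels placed SJL/J in 1 class of strains. Ifi44l, an interferon-induced gene, read 2.84, 2.71 and 2.79, and 12 other strains, including FVB/NJ, SWR/J and C57BL/6J, lay within 0.5 of it, while SM/J reached 8.17 (-2.64 ± 0.16, adjusted p 5.1e-31). Gdpd3, a lysophospholipase D, read 3.51, 3.57 and 3.43 with 13 strains within 0.5 of it, and reached 9.40 in C57L/J (-2.13 ± 0.12, adjusted p 2.16e-31). The Swiss strains split here, with 3.67 in SWR/J and 8.64 in FVB/NJ. Slco1a1, an organic anion transporter of the hepatocyte surface that is higher in males, read 2.88, 2.96 and 3.01, and 10 strains lay within 0.5. These Slco1a1 readings, like those of H2-Ea and Ifi44l, lay below the SJL/J array medians, so they may be background, and differences from them can understate the true size. Its means were 9.91 in FVB/NJ and 10.49 in SWR/J, a difference of -7.25 for SJL/J (limma adjusted p 7.84e-23), against -2.50 from all 28 strains (adjusted p 1.34e-05). Against all 95 other strains the adjusted p for Slco1a1 was 0.0627.

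On the high side, Gstp3, a pi-class glutathione S-transferase, had the largest rise of the 17097 genes, at 10.89, 11.27 and 11.16. Only FVB/NJ, KK/HlJ and NON/ShiLtJ lay within 0.5 of the SJL/J mean, and the strain median was 7.81 (2.94 ± 0.15, 7.66-fold, adjusted p 4.15e-36). Its level in SWR/J was 8.30 and in FVB/NJ 11.48. Ctse, the aspartic protease cathepsin E, was 9.60, 9.76 and 9.56 (2.27 ± 0.45, adjusted p 0.000187), with 9 strains within 0.5 and 9 under 5. Cyp2c39, a cytochrome P450, was 9.68, 10.33 and 9.95, ranking 13 of 29, with 14 strains within 0.5, although it differed by 1.39 from an average that takes in C57BLKS/J at 4.43. Ugt2b37, a UDP-glucuronosyltransferase, was 6.92, 5.61 and 5.65 (1.74 ± 0.30, adjusted p 1.69e-05), beside 6.98 in SWR/J. Igsf23, an immunoglobulin superfamily gene, was 6.80, 4.87 and 5.87 (1.88 ± 0.14, adjusted p 1.27e-23), and FVB/NJ and SWR/J lay at 3.35 and 3.48. For all 5 of these genes at least 1 other strain read higher than SJL/J.

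**Figure D4:**
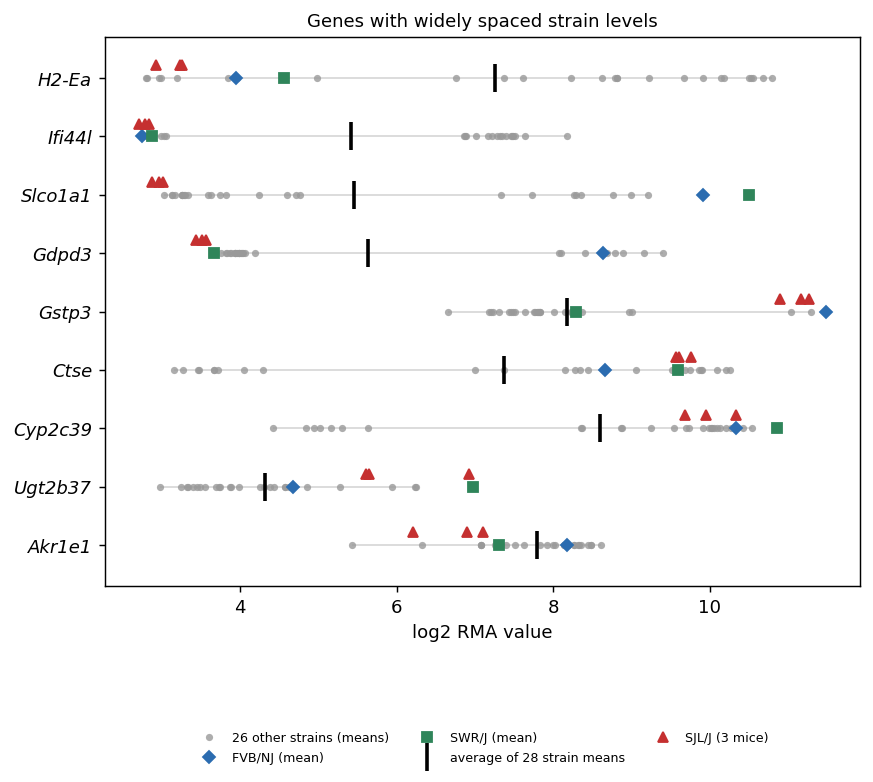
Log2 RMA values of 9 genes with widely spaced strain levels in the 3 SJL/J mice (triangles) and the 28 other classical strain means (grey points; FVB/NJ diamond, SWR/J square; the bar is their average). The mice sit in the low class for H2-Ea, Ifi44l, Slco1a1 and Gdpd3 and among the higher strains for Gstp3 and Ctse.

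Among metabolising enzymes and bile acid genes, calls went both ways. Cyp39a1, an oxysterol hydroxylase of bile acid synthesis, was 5.62, 6.27 and 6.06, against strain means from 5.97 in DBA/2J to 7.95 in SWR/J (-1.12 ± 0.17, adjusted p 4.38e-07). Nr1i3, the xenobiotic receptor CAR, was 7.56, 8.51 and 7.90, the lowest mean of the 29 strains (-0.77 ± 0.16, adjusted p 0.000309, but 0.0979 without mouse 1). Cyp2d9 was lower, at 7.06, 5.55 and 6.98 (-1.24 ± 0.30, adjusted p 0.00393, but 0.269 without mouse 2). Cyp3a16 was uneven, at 4.83, 6.81 and 3.31, and its difference of 1.56 (adjusted p 0.00178) was lost without mouse 2 (adjusted p 0.457). In all, 2 of 25 Cyp2 genes were called higher and 2 lower, and 2 of 25 bile acid genes higher and 2 lower. In each list that is 16% called, beside 4.93% of all genes.

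Of 10 measured chaperones of the heat shock response 4 were called higher (40%, beside 2.29% of all genes) and 0 lower, 9 lay above the average, and the median was 0.33. The other 6, Hspa8 and Hsp90aa1 among them, were not called. Dnajb1, a co-chaperone of heat shock protein HSP70, was 7.85, 7.91 and 7.68 (0.51 ± 0.10, adjusted p 0.000229). Chordc1, a partner of HSP90, was 8.73, 8.52 and 8.58 (0.50 ± 0.09, adjusted p 6.2e-05). SJL/J ranked 2 of 29 for both, below C58/J. Hsph1 was higher by 0.53 (adjusted p 0.00831) and Hspe1 by 0.32 (adjusted p 0.00154). A dimmer probe set of Dnajb1 was not called (0.25, adjusted p 0.22), nor was that of Hspe1 (0.22, adjusted p 0.161). SJL/J ranked 7 of 29 on each of these. The same list had 4 genes called higher and 0 lower against FVB/NJ and SWR/J, with a median of 0.32, beside 5.4% of all genes called higher there. Without mouse 1 the count was 2, Hsph1 (0.073) and Hspe1 (0.139) being lost. Without mouse 2 it was 4, but Hsph1 was lost (0.0666) and Dnaja1 came in (0.029), and without mouse 3 it was 4. Cirbp, an RNA-binding protein that rises in the cold, was the lowest of 29 strains at 4.89, 5.0 and 5.33 (-0.97 ± 0.25, adjusted p 0.0088, but 0.115 without mouse 1 and 0.0593 without mouse 2).

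Growth and duct-related genes gave further single differences. Ccnd1, cyclin D1, which drives entry into the cell cycle, was 11.34, 10.77 and 11.04, the highest mean of the 29 strains (0.81 ± 0.14, adjusted p 1.51e-05). Of 26 cell cycle genes 2 were called higher, Ccnd1 and Tyms (7.69%, beside 2.29% of all genes called higher). Of the 26, 22 lay above the average, with a median of 0.36. Tyms, thymidylate synthase, lost its call whichever mouse was left out (adjusted p 0.0988 to 0.358), and without mouse 1 the median was 0.10. Fst, follistatin, which binds activin, was 6.49, 5.98 and 6.20 (1.25 ± 0.22, adjusted p 2.58e-05). Krt23, a keratin induced in injured liver, was 6.79, 6.57 and 6.36 (1.52 ± 0.23, adjusted p 6.2e-07), and Prom1, a surface protein of ducts and progenitor cells, was 9.24, 9.42 and 9.17 (1.22 ± 0.31, adjusted p 0.00828, but 0.0542 to 0.0659 with any 1 mouse left out). These were the only 2 of 11 cholangiocyte markers called (18.2%, beside 4.93% of all genes), and the median of the 11 was -0.003. The mean level of the markers, 5.54, 5.05 and 5.17, lay within the strain range of 4.15 to 6.16, and its part in the difference was not tested. Nox4, an NADPH oxidase, was the lowest of the 29 strains at 5.55, 6.49 and 6.97 (-1.18 ± 0.19, adjusted p 4.23e-06).

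**Figure D5:**
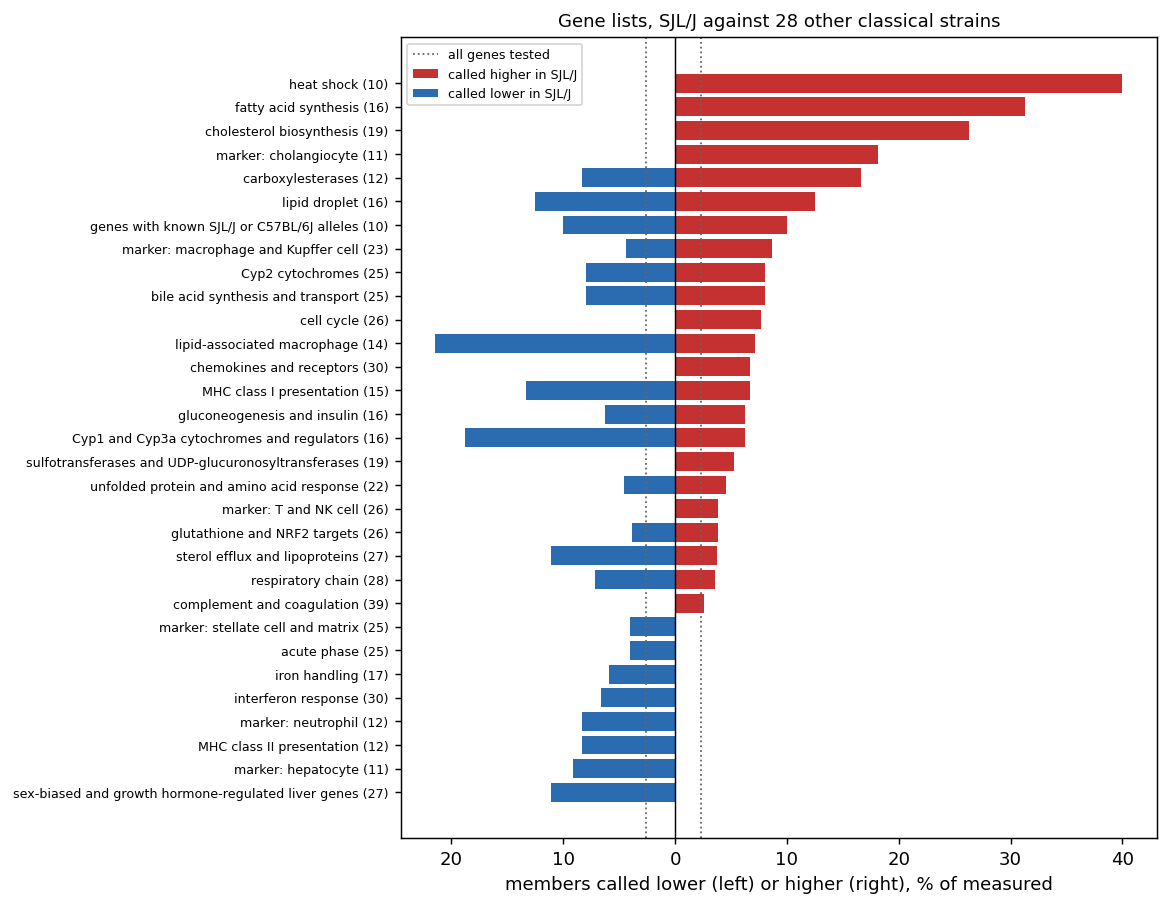
Share of measured members (number in brackets) of each gene list of 10 or more genes that was called higher (red, right) or lower (blue, left) in SJL/J in the within-strain test, in percent. Lists with 0 calls are left out, the lipid droplet share counts Hsd17b13 by its brighter probe set, and the dotted lines mark 2.29% and 2.64% of all genes; heat shock (40%), fatty acid synthesis (31.2%) and cholesterol biosynthesis (26.3%) reach furthest to the right.

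Most of the genes listed for known SJL/J or C57BL/6J alleles were not called in F1 liver. Tyr, Pde6b, Oca2 and Klrb1c had SJL/J means of 2.68, 2.48, 2.95 and 3.05, below the SJL/J array medians. At such levels a difference could go unseen. Dysf, the dysferlin gene, was 4.11, 4.49 and 3.61 (0.01, adjusted p 0.989). Hc, complement C5, is non-functional in several strains, FVB/NJ, SWR/J and AKR/J among them, and was 11.69, 11.80 and 11.91 in SJL/J (0.24 ± 0.05, adjusted p 0.00173, but 0.139 without mouse 3). Against the FVB/NJ and SWR/J means of 11.25 and 11.34 the difference was 0.51 (limma adjusted p 5.74e-09). Of the 10 genes in this group, Hc and H2-Ea were the 2 called (20%, beside 4.93% of all genes).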

How the data were processed

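Expression in the liver of 220 female F1 mice was measured on HT MG-430 PM arrays (Affymetrix), 1 per mouse. The deposited log2 values were summarised for each probe set by the authors with RMA, which corrects background, quantile-normalizes arrays and combines probes. GCOS and RMA are named in the submitters' processing notes, with no version or batch correction stated in the sources used here. From 45141 rows, 104 control probe sets were removed. Platform annotation gave 1 symbol to 28898 probe sets, several to 551 and none here to 15588. The probe set with the highest mean represented each of 17097 genes. Fits used limma 3.58.1 in R 4.3.3: 1 mean per strain over 220 mice (124 residual degrees of freedom), or 29 strain means (27), where the single SJL/J mean is assumed to vary like the others. The fits were tested on simulated data. Of the 28 comparison strains 2 had 1 mouse, 18 had 2 and 8 had 3. Nothing in the labels ties mice to litters, so litter could not be fitted. The p-values of the within-strain test and of the contrast with FVB/NJ and SWR/J measure the spread between mice of a strain. Those of the among-strain test measure the spread between strain means. Arrays give no depth; their number limits the precision. Probes of paralogs can cross-hybridise.

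The rule for named genes took the 20 largest rises and 20 largest falls among genes called in both limma tests with all 3 mice on 1 side (2 genes passed), up to 4 called members of each list by size (up to 2 of a list with none), genes with known SJL/J or C57BL/6J alleles, Apoe, runs of neighbouring genes, and named genes whose probe sets disagree in sign. The 25 largest rises and 25 largest falls, and separated genes with a difference of 0.5 or more, were added after their values were seen. Some list members were named outside this rule, among them Fdft1, Sqle, Insig1, Hmgcs1, Gpam, Scd1, Acly and Acaca. The SJL/J contrast and the 47 gene lists were chosen with earlier results of these data known. List counts without each mouse were added after seeing the data. Alternatives were other reference strains, leaving out each SJL/J mouse, array centring, a signal filter, a trended and robust spread, and averaged probe sets. Promoter sequences came from RefSeq (GRCm38.p6).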

Additional observations from a re-analysis of the deposited data

How the results depend on the processing

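No paired analysis was possible because the labels carry no replicate numbers that tie mice of different strains together. Without each SJL/J mouse in turn, the within-strain test called 363 to 733 genes, 165 to 330 higher and 198 to 403 lower (843, 391 and 452 with all 3). The among-strain test called 1 to 12 genes, 1 to 10 higher and 0 to 2 lower, and the contrast with FVB/NJ and SWR/J called 437 to 1932 genes, 269 to 1162 higher and 168 to 770 lower. The among-strain count was 1 (0 lower) without C57BL/6J, C57BLKS/J, C57L/J and C58/J, 0 (0 higher and 0 lower) with only strains of 2 or more mice, 5 (4 higher) against all 95 other strains, 1 (0 lower) with a trended and robust spread, and 1 (0 higher) with probe sets averaged. The cause of these changes was not tested. Hsd17b13 turned to 1.40 with averaged probe sets. Dysf, near 0, turned to -0.0055 without C57BL/6J and ran from -0.203 to 0.2406 without each mouse, and Nnt, at -0.04, turned to 0.0541 against 95 strains and ran from -0.094 to 2e-04 without each mouse; none of these differences was called. Over 128 results for single genes, 1525 comparisons with an alternative were made: 1362 kept direction and side of the threshold, 157 kept direction but lost the call, 0 gained it and 6 changed direction. Of the 128 results, 70 changed under at least 1 alternative. The 128 did not take in all uncalled list members, so the 0 gained describes these results only. Outside them, without mouse 1, the arginine metabolism gene Aldh4a1 went from an adjusted p of 0.133 to 0.0453. The GTPase gene Gbp2b turned from 0.50 to -0.43 without the same mouse. Arrays give no depth, and dim genes such as Sectm1b and Hmgcs1 sit near the background.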

Other observations

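Several large differences outside the lists were also held without each mouse. Npl, which breaks down sialic acid, was 6.03, 5.06 and 6.08 (1.44, limma adjusted p 7.72e-08), Corin, a protease that activates atrial natriuretic peptide, was 5.07, 5.11 and 5.18 (1.38, adjusted p 7.91e-07), and Bcat2, a branched-chain aminotransferase, was 4.41, 4.52 and 3.96 (1.25, adjusted p 4.86e-13). None of the 3 was private to SJL/J: MA/MyJ, DBA/2J and I/LnJ respectively were higher. On the low side, Klra9, an NK cell receptor of the Ly49 family, was 4.51, 4.15 and 4.63 (-1.39, adjusted p 2.97e-06), the aldo-keto reductase Akr1e1 was 7.11, 6.91 and 6.21 (-1.05, adjusted p 4.32e-17), and the membrane peptidase Mme was 3.48, 3.66 and 3.66 (-0.96, adjusted p 7.75e-05).

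Against FVB/NJ and SWR/J alone, other groups differed from those described against all strains. Of all genes 8.76% were called there (5.4% higher and 3.35% lower), and the count of 1497 fell to 437 without mouse 1. Of 30 interferon response genes 13 were called higher in SJL/J and 0 lower (median 0.64), of 25 stellate cell and matrix genes 10 higher and 1 lower (median 0.49), and of 25 Cyp2 genes 0 higher and 7 lower (median -0.33), while all genes had a median of 0.015. SWR/J had the lowest mean level of the 28 strains for the interferon and stellate lists and the highest for the Cyp2 list; its part in these counts was not tested. Among genes called in the within-strain test, 2 runs of 3 neighbouring measured genes were found: Tm7sf3, Med21 and Stk38l, higher by 0.43, 0.44 and 0.46, and Ccdc40, Gaa and Eif4a3, with differences of 0.30, -0.29 and -0.22. No run was called in both tests.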
